A study of Homo sapiens with 15 samples.

Results

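The comparison described here set cells that had been dissociated and replated 1 day earlier against cells that had stayed in their wells. The transcripts were sequenced in bulk from H1, an established human embryonic stem cell line of wild-type genotype, on day 3 of a cardiac differentiation. All cells had been induced to mesendoderm with CHIR99021, which activates WNT signalling, from day 0 and had received insulin on day 1 in the chemically defined DF medium. In the NP-ctrl arm (not passaged) they then differentiated spontaneously in place without a further inducer. In the passaged arm they were lifted with EDTA on day 2 and replated on Matrigel in the same medium, without a WNT inhibitor. Another static culture, NP-IWP2, was given IWP2 from day 2, which blocks the secretion of WNT proteins. Each arm had 1 library on day 3, and the culture was sampled once on day 2 before the arms were divided. The replated cells were split into new wells, and the study states that its differentiations after the first tests of Y27632, an inhibitor of ROCK that keeps dissociated cells alive, all included it. Whether the replated cells received insulin again is not given for these libraries. Lifting, the new surface, the cell density and such additions therefore cannot be told apart.

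The members were the genes with at least 30 counts in the passaged or the NP-ctrl library of day 3, which left 15030 of 60605 genes (12993 protein-coding, 1344 lncRNA and 693 of other types). Of these, 13513 had at least 30 counts in both libraries, 662 in passaged alone and 855 in NP-ctrl alone. The 92 genes whose larger count was exactly 30 had log2 ratios from -3.07 to 3.57, and the 95 genes just left out, at 29 counts, from -3.02 to 3.52. FPKM values as deposited serve as levels, that is, counts divided by exonic length and by library total. Ratios are passaged over NP-ctrl, and a gene was counted as higher or lower when they were at least 2-fold apart. With 1 library in each arm no test was possible, and the 95% intervals cover counting error only.

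Cells that leave an epithelial sheet and settle on a new matrix rebuild the contacts between integrins and actin, and these contacts feed signals into cell cycle and fate decisions. At this stage of differentiation the culture is passing from primitive streak to mesoderm. Streak genes such as MIXL1 and EOMES are lost, MESP1 marks the cells from which most of the heart derives, and HAND1 and HAND2 mark the first cardiac and lateral mesoderm. Cells of the second heart field, which ISL1 marks, lie behind these and keep dividing under FGF before they join the heart.

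After 1 day, 1478 genes were at least 2-fold higher in passaged (9.83% of the members) and 1145 were at least 2-fold lower (7.62%). The quartiles of the log2 ratio were -0.34 and 0.50, the median was 0.079, and 9409 genes (62.6%) lay within 1.5-fold. Of the higher genes 521 had at least 30 counts in passaged alone, and of the lower genes 486 in NP-ctrl alone. At least 8-fold differences were found for 78 higher and 90 lower genes. By the same rule the other static culture, NP-IWP2, had 4.48% of genes higher and 1.34% lower than NP-ctrl. For all 2623 genes counted, the counting interval excluded equality. The filter of 30 counts and the 2-fold limit leave little room for another outcome, and it says nothing about differences between cultures. Of the protein-coding members 8.70% were higher and 6.26% lower, against 17.1% and 16.3% of the others, which have fewer counts. The balance of the directions depended on the scaling, since higher genes made up 56.3% of those counted with library totals, 45.8% with TMM factors, 43.7% with median-of-ratios factors and 77.5% with TPM. These scalings shifted all log2 ratios by -0.12, -0.15 and 0.28.

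**Figure D1:**
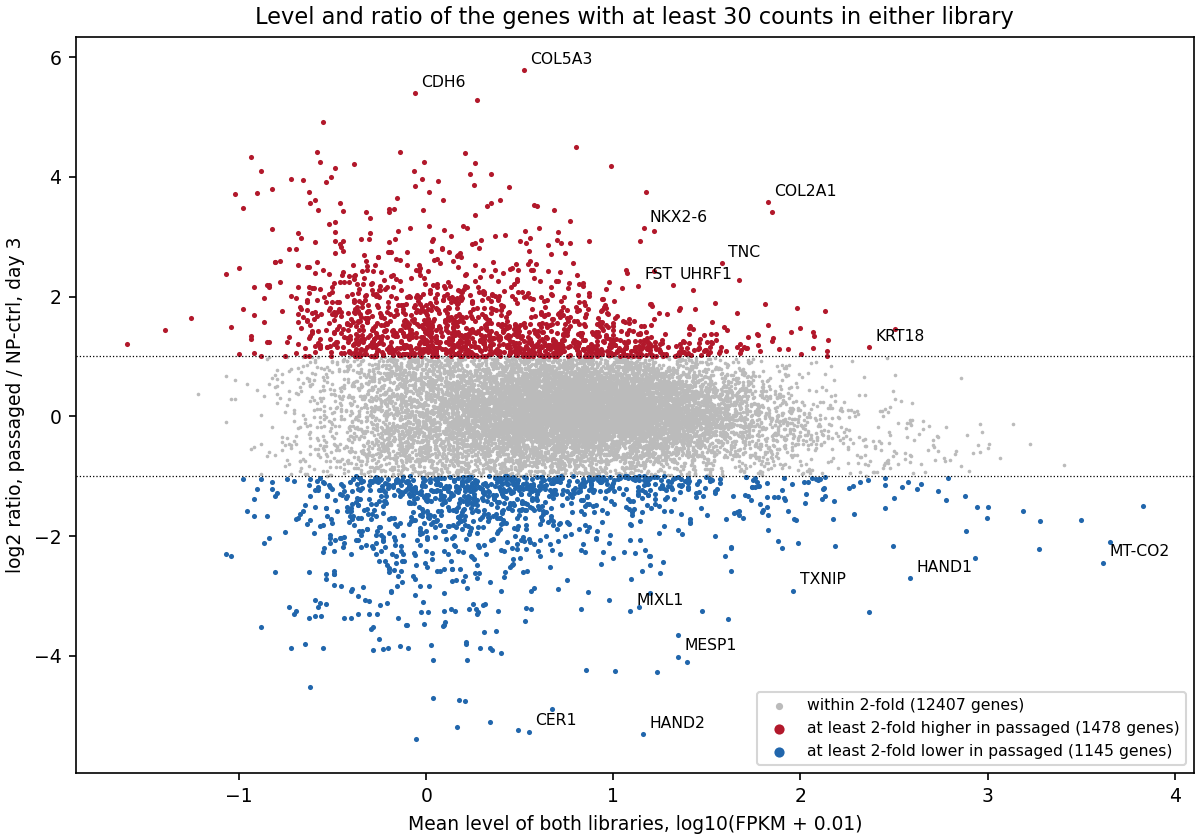
Level (log10 of the mean FPKM of both libraries + 0.01) against log2 ratio of passaged over NP-ctrl on day 3, 1 point a gene, with the dotted lines at 2-fold. The 1478 genes at least 2-fold higher and the 1145 at least 2-fold lower occur at low and high levels, but less often at high counts. They are 17.5% of all members and 12.7% of those with at least 100 counts in either library. MT-CO1 and MT-CO2, at the far right, lie on the lower side.

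The total counts were 16253300 in NP-ctrl, 13682085 in passaged and 13495766 in NP-IWP2, and 27140 to 28686 genes were above 0. The NP-ctrl library stood apart from the others in its relation to gene length. From the shortest to the longest of 10 bins of the members, the median log2 ratio of passaged over NP-ctrl went from -0.26 to 0.34, that of NP-IWP2 over NP-ctrl from -0.21 to 0.34, and that of passaged over NP-IWP2 only from -0.020 to 0.0035. Spearman's correlation with exonic length over the same 15030 genes was 0.23, 0.35 and 0.02 in that order, a description of libraries that share samples. The library kit given is one for long reads (SMRTbell), whereas the tools given are for short reads, and which reads were counted was not resolved. Some list medians are therefore given below also with this trend removed, or beside NP-IWP2. Of the higher genes 269 (18.2%), and of the lower genes 44 (3.84%), were genes for which NP-ctrl alone stood apart, with NP-IWP2 past 2-fold on the same side and within 2-fold of passaged. Passaged differed at least 2-fold from both static cultures for 707 higher (47.8%) and 815 lower genes (71.2%). The remaining 502 higher and 286 lower genes met neither condition.

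**Figure D2:**
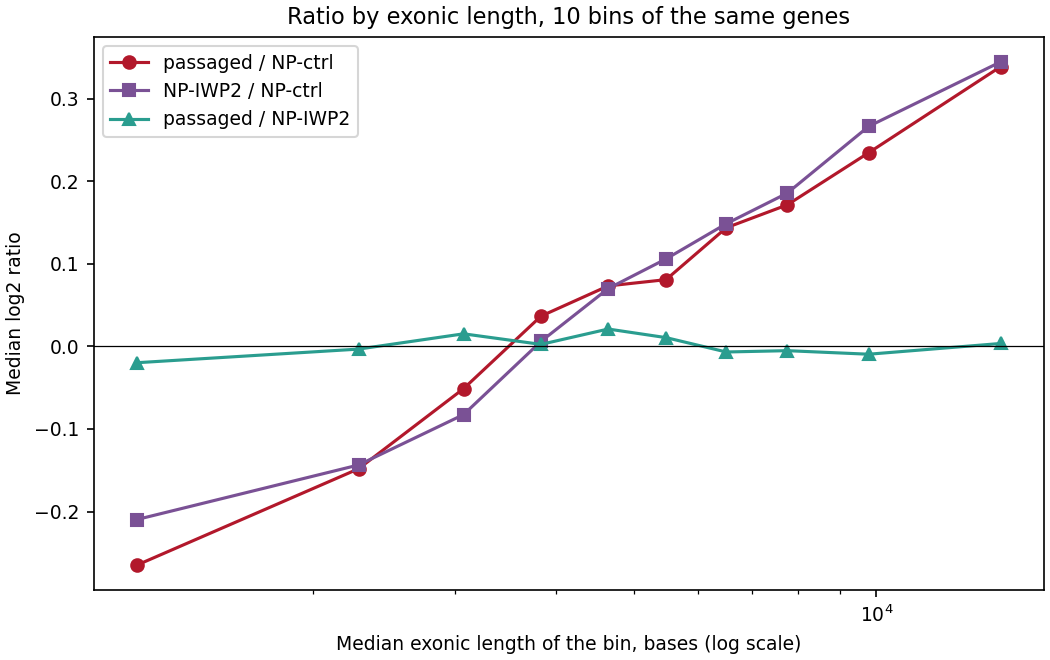
Median log2 ratio of the members in 10 bins of exonic length (log axis), for the 3 pairs of day 3 libraries. Both comparisons with NP-ctrl rise from below 0 for short genes to 0.34 for the longest, and passaged over NP-IWP2 stays flat.

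Among single genes, the largest ratio was that of COL5A3 (ENSG00000080573, chromosome 19, 9959561 to 10010504, GRCh38), a minor chain of the fibrillar collagen V, from 0.12 FPKM in NP-ctrl and 0.09 in NP-IWP2 to 6.49 FPKM after passaging. Passaged was 55.01-fold (95% interval 31.9 to 104) above NP-ctrl. CDH6, a cadherin of embryonic epithelia, followed with 0.04 FPKM in NP-ctrl and 1.67 in passaged, and GDPD2, a membrane phosphodiesterase, with 0.09 FPKM in NP-ctrl and 3.63 in passaged. COL3A1 and COL12A1, chains of fibrillar and fibril-associated collagens, and THBS2, a matricellular thrombospondin, were also among the 15 largest ratios. Their levels were 0.06 against 1.36 FPKM, 0.01 against 0.2 FPKM and 0.03 against 0.49 FPKM, in NP-ctrl and passaged respectively, so each remained low. NDP, which encodes the Frizzled ligand norrin, had 0 counts in both static libraries and 1.93 FPKM in passaged, a ratio of at least 19.01-fold. The neurosecretory gene VGF had 0.18 FPKM in NP-ctrl and 3.44 in passaged, and CDH13, a cadherin without a cytoplasmic domain, had 0.03 FPKM in NP-ctrl and 0.6 in passaged.

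The others of the 15 were SH3TC1, CAMK2B, PLSCR5, ZNF804A, HLA-DQA2 and the potassium channel gene KCNA2, with log2 ratios of 4.91, 4.42, 4.39, 4.22, 4.19 and 4.11. CAMK2B encodes a calcium and calmodulin dependent kinase subunit, and its FPKM was 0.02 in NP-ctrl and 0.48 in passaged. HLA-DQA2 shares sequence with another gene of its family, so its count is uncertain. For all 15 genes NP-IWP2, too, lay more than 2-fold below passaged.

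The smallest ratio was that of APOBEC3G, a cytidine deaminase, with 0.8 FPKM on day 2, 1.72 and 1.86 in NP-ctrl and NP-IWP2, and 0.03 after passaging. HAND2 (ENSG00000164107, chromosome 4, 173524969 to 173530229), a transcription factor of the early heart and limb, was near 0 in the day 2 culture and in passaged. It had 0.47 FPKM on day 2, 28.1 and 16.8 in NP-ctrl and NP-IWP2, and 0.71 after passaging, so that passaged was 39.6-fold (95% interval 28.4 to 57.04) below NP-ctrl. HAND2 overlaps its antisense gene HAND2-AS1, and the strand of the counting is not stated. HAND2-AS1 had 0.51 FPKM in NP-ctrl and 0.11 in passaged.

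CER1, a secreted antagonist of NODAL, BMP and WNT, lay below its day 2 level of 174 FPKM in every arm, with 6.85 in NP-ctrl, 11.1 in NP-IWP2 and 0.18 after passaging. CYP26A1, the enzyme that degrades retinoic acid, showed the same order, with 32.4 FPKM on day 2, 4.23 and 18.9 in NP-ctrl and NP-IWP2, and 0.12 after passaging. TMOD1, a protein that caps actin filaments, had 6.01 FPKM in NP-ctrl and 0.16 in passaged, and NPPB, the natriuretic peptide B of stretched heart muscle, had 9.21 FPKM in NP-ctrl and 0.21 in passaged. TBX2, a repressor in the non-chamber heart, had 2.02 FPKM in NP-ctrl and 0.12 in passaged, while its antisense neighbour TBX2-AS1 had 4.69 FPKM in NP-ctrl and 0.3 in passaged. FADS6, GYPE, MAGEA11, NPY1R and CKM, the muscle creatine kinase, completed the list with TBX6, MESP1 and MESP2, and their log2 ratios were -5.19, -4.74, -4.27, -4.07 and -3.89. GYPE and MAGEA11 have near-identical relatives and are uncertain. For all 15 genes passaged was also more than 2-fold below NP-IWP2.

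Genes of the primitive streak and of the presomitic mesoderm lay mostly lower in passaged than in NP-ctrl. Of the primitive streak list, 0 of 17 members were at least 2-fold higher and 9 lower, with a median log2 ratio of -1.05, beside 0.079 over all members and the 9.83% and 7.62% given above. Over NP-IWP2, 5 of the streak genes were at least 2-fold higher and 7 lower. Of the 17 members, 11 had at least 30 counts in both libraries. The others, such as CER1 with 137 counts in NP-ctrl and 3 in passaged, were members through 1 library alone. Over the settings tried the median of passaged over NP-ctrl went from -1.20 to -0.66. MIXL1, a homeobox factor of the streak, had 199 FPKM on day 2, 22.3 and 58.3 in NP-ctrl and NP-IWP2, and 2.33 after passaging. The T-box factor EOMES had 128 FPKM on day 2, 15.3 and 46.8 in NP-ctrl and NP-IWP2, and 3.52 after passaging. For both, all day 3 cultures lay below day 2, and passaged lay lowest. FGF17, FGF4 and NODAL, ligands of the streak, had log2 ratios of -2.74, -2.48 and -2.45. TDGF1, the NODAL coreceptor, had 18.3 FPKM in NP-ctrl and 8.84 in passaged. For CDX2, a caudal factor of the posterior streak, NP-ctrl alone stood apart, with 2.55 FPKM against 0.63 in NP-IWP2 and 0.44 after passaging. CDX1 had 1.91, 0.21 and 0.78 FPKM in the same order. EVX1 and FGF8 leaned the other way but stayed under 2-fold, at 1.96 against 3.92 FPKM and 26.5 against 46.6 FPKM in NP-ctrl and passaged. In bulk RNA, fewer cells of a type and less RNA per cell cannot be told apart.

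For presomitic and paraxial mesoderm, 2 of 12 members were at least 2-fold higher and 6 lower, with a median log2 ratio of -1.12. At least 30 counts in both libraries were found for 10 of the 12. Over the settings tried the median went from -1.27 to -0.49. TBX6, which directs cells to a paraxial fate, had 47.6 FPKM on day 2, 19.4 and 21.8 in NP-ctrl and NP-IWP2, and 1.01 after passaging, and passaged was 19.1-fold (95% interval 14.2 to 26.5) below NP-ctrl. MESP2, a segmentation factor, had 46.5 FPKM in NP-ctrl and 2.71 in passaged. It lies beside the similar gene MESP1, and reads could be split between them. The NOTCH ligands DLL3 and DLL1 and the segmentation clock gene HES7 had log2 ratios of -1.90, -1.30 and -1.68, and RIPPLY2 had -3.26. The exceptions were FOXC2, a forkhead factor of paraxial and pharyngeal mesoderm, with 23.8 FPKM on day 2, 15.9 and 26.3 in NP-ctrl and NP-IWP2, and 77.4 after passaging, and LFNG, which modifies NOTCH, with 3.65 FPKM in NP-ctrl and 9.58 in passaged. FOXC2 and LFNG were above both static cultures.

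The NODAL and TGF-beta list had the same direction, since 1 of 13 members were at least 2-fold higher and 8 lower, with a median log2 ratio of -1.10. At least 30 counts in both libraries were found for 9 of the 13. TGFB1, a ligand, had 34.2 FPKM on day 2, 65.6 and 68.3 in NP-ctrl and NP-IWP2, and 13.1 after passaging, and passaged alone lay below day 2. LEFTY2, a NODAL antagonist, had 1.08 FPKM in NP-ctrl and 0.26 in passaged. The NODAL cofactor FOXH1 had a log2 ratio of -1.24. For TGFB2 NP-ctrl stood apart, with 1.78 FPKM against 0.78 in NP-IWP2 and 0.59 after passaging. FST, follistatin, which binds activin, was the 1 member higher, with 8.86 FPKM on day 2, 4.87 and 3.69 in NP-ctrl and NP-IWP2, and 22.1 after passaging.

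Cardiac progenitor genes lay mostly lower. Of that list 1 of 15 members were at least 2-fold higher and 6 lower, with a median log2 ratio of -0.87. MESP1 had 81.8 FPKM on day 2, 41.8 and 39.2 in NP-ctrl and NP-IWP2, and 2.59 after passaging, and HAND1 had 44.9 FPKM on day 2, 671 and 492 in NP-ctrl and NP-IWP2, and 103 after passaging. For HAND1 passaged was 6.50-fold (95% interval 6.23 to 6.79) below NP-ctrl, yet above day 2. ISL1, of the second heart field, and FOXF1, of lateral mesoderm, were 2.51-fold and 2.26-fold lower, with NP-IWP2 in between. KDR, the VEGF receptor, had 104 FPKM in NP-ctrl and 40.7 in passaged. NKX2-6, a relative of NKX2-5 in the pharyngeal region, was the 1 member higher. It was listed at 0 on day 2 and had 2.95 FPKM in NP-ctrl, 1.42 in NP-IWP2 and 26.02 after passaging, 8.83-fold (95% interval 7.03 to 11.2) above NP-ctrl. TBX5, of the first heart field, stayed low, at 0.4 against 0.51 FPKM.

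By contrast, of the list for pharyngeal mesoderm and the second heart field, 5 of 12 members were at least 2-fold higher and 2 lower, with a median log2 ratio of 0.89. Besides NKX2-6 and FOXC2 the higher members included the FGF ligand FGF10, with 0.86 FPKM on day 2, 3.39 and 4.82 in NP-ctrl and NP-IWP2, and 14.9 after passaging, and the transcriptional coactivator EYA1, with 0.1 FPKM on day 2, 0.32 and 0.18 in NP-ctrl and NP-IWP2, and 1.29 after passaging. Each of these named genes was more than 2-fold above both static cultures. The lower members were ISL1 and HOXB1, the latter with 0.87 FPKM in NP-ctrl, 0.24 in NP-IWP2 and 0.18 after passaging, so NP-ctrl alone stood apart.

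**Figure D3:**
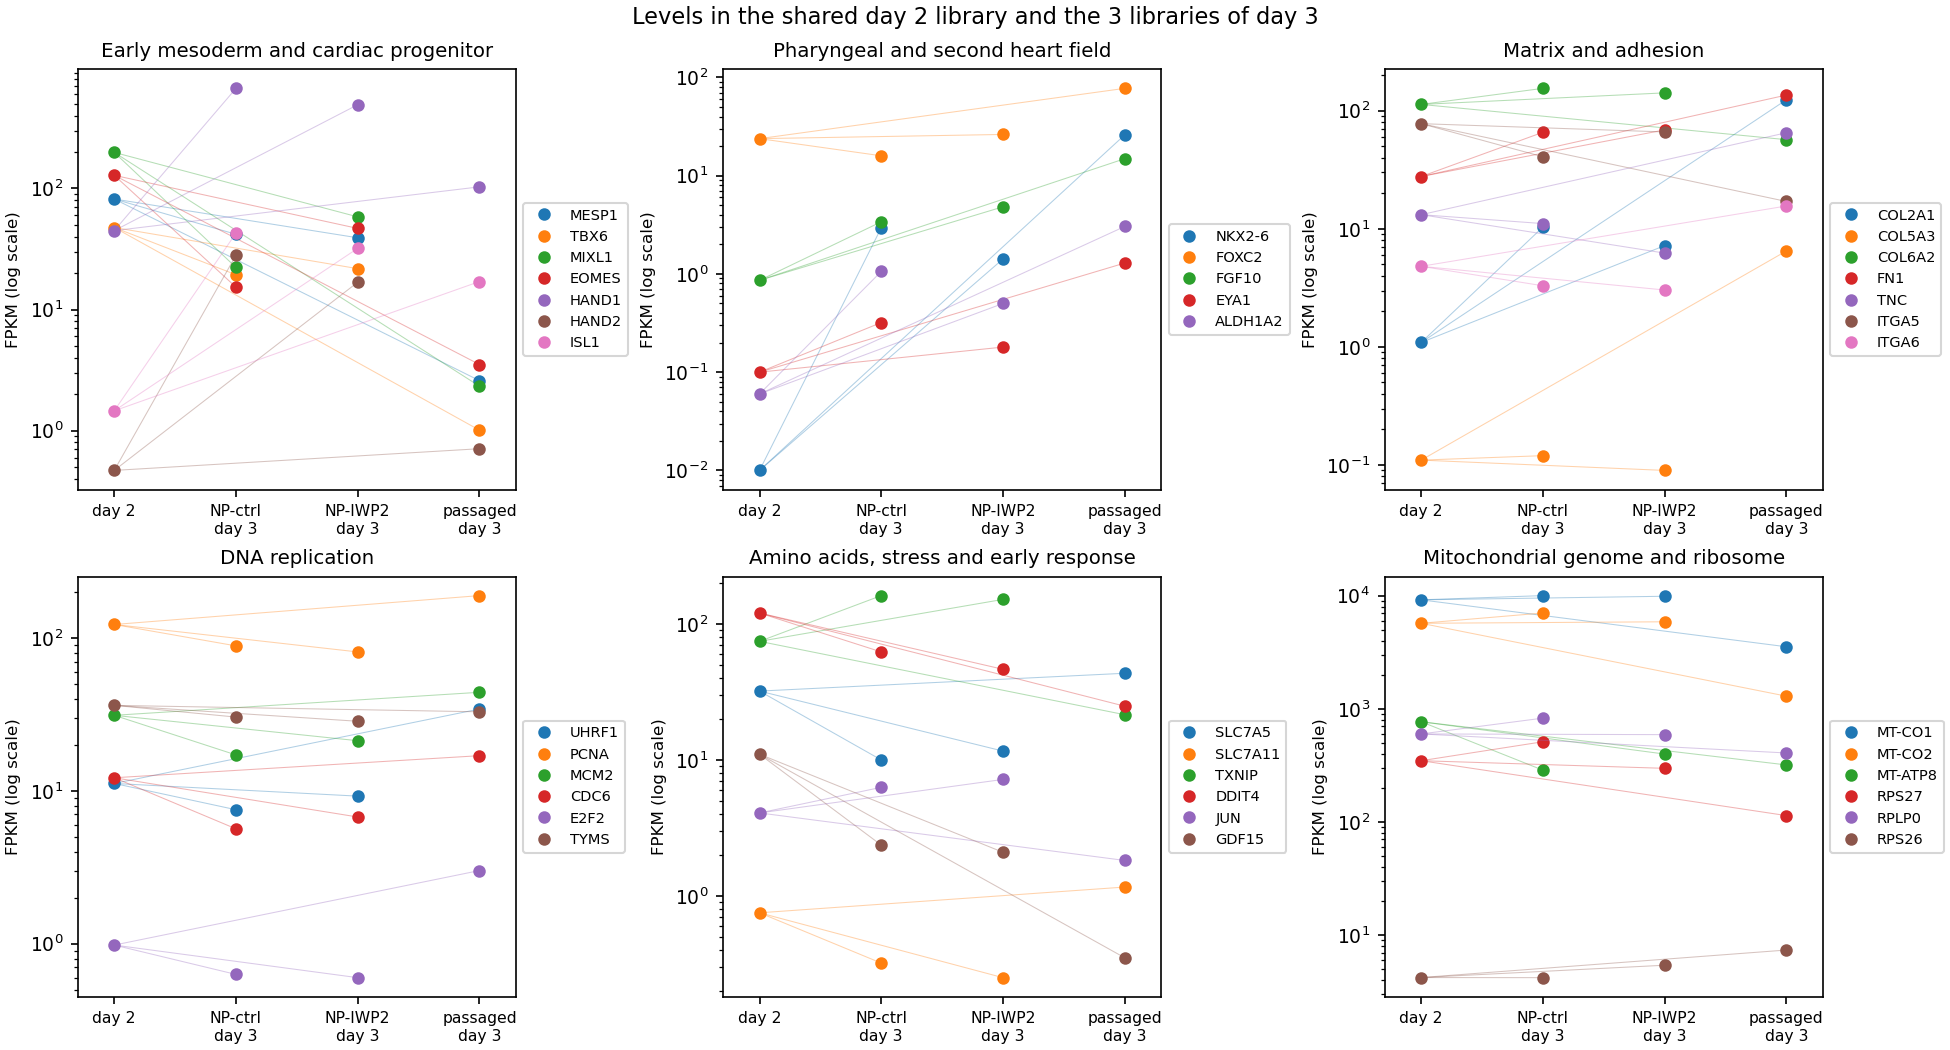
FPKM (log axis) of selected genes in the day 2 library and the NP-ctrl, NP-IWP2 and passaged libraries of day 3, with values under 0.01 drawn at 0.01 and thin lines that join day 2 to each arm. Of the 4 libraries, passaged has the lowest MESP1, TBX6 and MIXL1 and the highest NKX2-6, FOXC2 and FGF10, and HAND1 at 103.17 FPKM in passaged lies between day 2 and the static cultures.

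Genes of early cardiomyocyte structure went both ways, and most were barely expressed on day 3. Of 17 members, 5 were higher and 6 lower, and the median log2 ratio was 0.63. At least 30 counts in both libraries were found for 12 of the 17. Over the settings tried the median went from 0.26 to 0.91. TNNC1, the calcium-binding troponin, had 0.56 FPKM on day 2, 3.18 and 0.91 in NP-ctrl and NP-IWP2, and 9.54 after passaging. Its partner TNNT2 had 0.11 against 0.33 FPKM, the Z-disc gene LDB3 0.05 against 0.36 FPKM and titin (TTN) 0.7 against 2.07 FPKM. The ryanodine receptor RYR2 had 0.23 FPKM in NP-ctrl but 0.51 in NP-IWP2 and 0.66 after passaging. On the lower side, cardiac actin (ACTC1) had 8.14 FPKM in NP-ctrl and 1.91 in passaged. MYL3 and TNNI3 were lower with log2 ratios of -1.55 and -1.40, MYH6, whose reads can be shared with MYH7, with -3.81, and MYL4 lay at 8.09, 2.9 and 3.13 FPKM across NP-ctrl, NP-IWP2 and passaged.

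Collagens were the matrix group with the most genes on the higher side. Of the collagen chains, 12 of 27 members were at least 2-fold higher and 1 lower, with a median log2 ratio of 0.87, and with the length trend removed the median was 0.79. At least 30 counts in both libraries were found for 23 of the 27. COL5A3, COL3A1 and COL12A1, with 13, 7 and 2 counts in NP-ctrl, were members through passaged alone. Over the settings tried the median went from 0.48 to 1.15. COL2A1 (ENSG00000139219, chromosome 12, 47972967 to 48004554), the fibrillar collagen of cartilage and notochord, had 1.09 FPKM on day 2, 10.3 and 7.2 in NP-ctrl and NP-IWP2, and 124 after passaging. This was 11.9-fold (95% interval 11.2 to 12.7) above NP-ctrl and the largest difference in FPKM on the higher side of any collagen. COL1A1, the main fibrillar chain of connective tissue, had 3.09 FPKM on day 2, 41.1 and 25.5 in NP-ctrl and NP-IWP2, and 102 after passaging, and COL18A1, of basement membranes, had 55.3 FPKM on day 2, 52.2 and 56.8 in NP-ctrl and NP-IWP2, and 146 after passaging. COL7A1, COL9A1, COL6A3, COL14A1, COL27A1 and COL11A1 were higher with log2 ratios of 2.06, 2.13, 2.40, 1.64, 1.05 and 1.02. Collagen VI, which links cells to the matrix, went the opposite way in its abundant chains. COL6A2 had 113 FPKM on day 2, 154 and 141 in NP-ctrl and NP-IWP2, and 56.8 after passaging, and COL6A1 had 296 FPKM in NP-ctrl and 176 in passaged, a ratio of -0.75 on the log2 scale. The summed FPKM of all 29 chains was 880.1 in NP-ctrl and 1027 in passaged.

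Enzymes that process collagen stayed closer, with 3 of 19 higher, 2 lower and a median of -0.12. The crosslinking enzymes of the lysyl oxidase family diverged. LOX had 47.6 FPKM on day 2, 4.52 and 5.3 in NP-ctrl and NP-IWP2, and 0.74 after passaging, whereas LOXL1 had 9.79 FPKM in NP-ctrl and 22.1 in passaged and LOXL2 17.1 FPKM in NP-ctrl and 34.95 in passaged. P4HA1, a prolyl hydroxylase, and ADAMTS3, a procollagen protease, had log2 ratios of -1.08 and 1.04.

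Among the other matrix glycoproteins and proteoglycans 5 of 21 were higher and 5 lower. TNC, tenascin C, a matrix protein of migrating cells, had 13.2 FPKM on day 2, 11.1 and 6.22 in NP-ctrl and NP-IWP2, and 65 after passaging, and FN1, fibronectin, had 27.7 FPKM on day 2, 65.6 and 68.7 in NP-ctrl and NP-IWP2, and 135 after passaging. FBN1 and TGFBI were 2.66-fold and 2.93-fold higher. Elastin (ELN) had 8.85 FPKM in NP-ctrl and 1.2 in passaged, and fibromodulin (FMOD), which binds collagen fibrils, 14.5 FPKM in NP-ctrl and 3.01 in passaged. HAPLN1, a hyaluronan link protein, had 8.52 FPKM on day 2, 128 and 58.9 in NP-ctrl and NP-IWP2, and 42.6 after passaging, and NPNT, an integrin ligand, 0.34, 0.06 and 0.04 FPKM across NP-ctrl, NP-IWP2 and passaged. For HAPLN1 and NPNT it was NP-ctrl that stood apart. GPC6, a cell surface glypican, was 2.59-fold lower.

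Of laminins and basement membrane genes, 3 of 12 were higher and none lower, with a median log2 ratio of 0.70, or 0.54 with the length trend removed, when 1 was higher. Over NP-IWP2, 1 was at least 2-fold higher and 1 lower. Agrin (AGRN) had 28.5 FPKM on day 2, 27.8 and 33.6 in NP-ctrl and NP-IWP2, and 102 after passaging. LAMA1 had 21.1 FPKM in NP-ctrl and 44.5 in passaged. Perlecan (HSPG2) had 8.93 FPKM in NP-ctrl, 22.03 in NP-IWP2 and 21.2 after passaging, so it was NP-ctrl that lay low. NID2 and LAMC3 had the smallest ratios, at -0.37 and -0.73.

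Integrin subunits, the receptors for these ligands, differed in both directions. Of that list 6 of 14 members were at least 2-fold higher and 2 lower, with a median log2 ratio of 0.71. ITGA6, a laminin receptor subunit, had 4.81 FPKM on day 2, 3.29 and 3.03 in NP-ctrl and NP-IWP2, and 15.6 after passaging, and ITGA3, of another laminin receptor, had 2.37 FPKM in NP-ctrl and 6.82 in passaged. ITGA7 and ITGA8 were 2.58-fold and 2.28-fold higher. The collagen receptor subunits ITGA1 and ITGA2 had 0.23 against 0.73 FPKM and 0.09 against 0.35 FPKM, and for ITGA2 NP-IWP2, at 0.23, was nearer to passaged. ITGA5, the subunit of the main fibronectin receptor, was lower, with 77.6 FPKM on day 2, 40.6 and 65.99 in NP-ctrl and NP-IWP2, and 17.02 after passaging. ITGB4 had 0.35 against 0.17 FPKM.

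On the intracellular side of the contacts the differences were smaller. Of focal adhesion proteins 4 of 33 members were at least 2-fold higher and 1 lower, beside 9.83% and 7.62% of all members. The median log2 ratio was 0.31, or 0.24 with the length trend removed. Over NP-IWP2, 1 was at least 2-fold higher and none lower, with a median of 0.20. FLNA, filamin A, which crosslinks actin, had 129 FPKM on day 2, 63.6 and 88.8 in NP-ctrl and NP-IWP2, and 169 after passaging, and TNS3, FERMT1 and TLN2 were 2.49-fold, 2.21-fold and 2.04-fold higher. PARVB was 2.23-fold lower. Of actin and SRF target genes 1 of 20 was higher, the myosin heavy chain MYH9 with 48.2 FPKM in NP-ctrl and 105 in passaged, and 3 were lower. CNN1, calponin of smooth muscle, had 8.83 FPKM in NP-ctrl and 2.58 in passaged, and TGFB1I1 had 1.28 FPKM in NP-ctrl and 0.53 in passaged. ACTB, cytoplasmic actin, was 1.56-fold (95% interval 1.54 to 1.58) higher, at 566 against 882 FPKM, which is under the 2-fold limit but among the 8 largest FPKM differences of protein-coding genes.

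Target genes of YAP and TEAD, which respond to cell spreading, were mixed, and 5 of 20 members were at least 2-fold higher and 3 lower, with a median log2 ratio of 0.48. CCN2, a matricellular protein and a widely used YAP target, had 4.84 FPKM on day 2, 8.11 and 8.97 in NP-ctrl and NP-IWP2, and 19.5 after passaging, 2.40-fold (95% interval 2.09 to 2.76) above NP-ctrl. AMOTL2, FJX1, CCDC80 and IGFBP3 were higher with log2 ratios of 1.24, 2.41, 1.58 and 3.52. ANKRD1, another widely used target, was lower with 16.3 FPKM in NP-ctrl and 7.06 in passaged, as were GADD45A with 44.6 FPKM in NP-ctrl and 21.1 in passaged and TGFB2. The 250 bases before the start of CCN2 are shown because they hold the TEAD word GGAATG, in capitals, 3 times (GRCh38.p14 from RefSeq, chr6:131951373-131951622, minus strand, written 5′ to 3′ on the strand of the gene).

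CCN2: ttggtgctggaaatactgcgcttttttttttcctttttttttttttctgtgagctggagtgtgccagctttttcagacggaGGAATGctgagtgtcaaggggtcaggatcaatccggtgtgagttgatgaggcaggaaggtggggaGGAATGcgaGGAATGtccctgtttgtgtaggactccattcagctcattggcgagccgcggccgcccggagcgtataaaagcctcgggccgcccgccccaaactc

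In windows from 250 bases before to 50 bases after the start, 14.1% of the 27305 promoters in the RefSeq table held this word on either strand. Of the 14 YAP and TEAD target genes with an entry there, 7 did, and of the 5 higher members CCN2 alone did.

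Among matrix proteases and inhibitors, ADAMTS9, MMP16 and PLAT, the tissue plasminogen activator, were higher, 3 of 17 members, with log2 ratios of 2.15, 1.95 and 2.00. SERPINE2, an abundant protease inhibitor, was lower with 388 FPKM on day 2, 164 and 142 in NP-ctrl and NP-IWP2, and 79.5 after passaging.

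Genes of DNA replication and the entry into S phase were nearly all on the higher side, 40 of 41. Of 41 genes 19 were at least 2-fold higher and none lower, and the median log2 ratio was 0.95, or 1.07 with the length trend removed. The helicase subunits MCM2, MCM3, MCM4 and MCM6 had 17.2 against 44.1 FPKM, 54.2 against 118 FPKM, 29.8 against 74.7 FPKM and 28.2 against 63.1 FPKM in NP-ctrl and passaged. PCNA, the clamp of the replication fork, had 122 FPKM on day 2, 88.6 and 80.9 in NP-ctrl and NP-IWP2, and 189 after passaging. CDC6, which loads the helicase, had 12.2 FPKM on day 2, 5.64 and 6.74 in NP-ctrl and NP-IWP2, and 16.97 after passaging. In each case passaged also lay above NP-IWP2 and day 2.

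The transcription factor E2F1, which drives these genes, had 13.1 FPKM on day 2, 8.74 and 9.2 in NP-ctrl and NP-IWP2, and 21.6 after passaging. Its relative E2F2 had 0.98 FPKM on day 2, 0.63 and 0.6 in NP-ctrl and NP-IWP2, and 3.01 after passaging. UHRF1, which carries DNA methylation through replication, had 11.2 FPKM on day 2, 7.52 and 9.23 in NP-ctrl and NP-IWP2, and 34.3 after passaging, 4.55-fold (95% interval 4.17 to 4.98) above NP-ctrl. MCM10, CLSPN, GINS4, POLA1, POLE, CHAF1A, CCNE2, FEN1 and GINS2 were also higher, with log2 ratios from 1.03 (GINS2) to 1.83 (CLSPN). The smallest ratios were those of CDT1, the licensing factor that is degraded in S phase, with 53.8 against 43.6 FPKM, and TYMS, with 30.3 against 32.9 FPKM. Relative to day 2 the median of the list was -0.45 in NP-ctrl and 0.56 in passaged, on the log2 scale.

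Genes of G2 and mitosis did not share this pattern. None of 32 was 2-fold apart, and the median log2 ratio was -0.24, or 0.041 with TPM. CCNB2, a mitotic cyclin, and UBE2C, of the anaphase-promoting complex, had the smallest ratios, with 62.7 against 33.6 FPKM and 112 against 62.6 FPKM, and CENPF and MKI67 the largest, with 26.8 against 46.8 FPKM and 16.8 against 20.98 FPKM. Of 6 D cyclins and CDK inhibitors, CCND2 had 16.04 FPKM in NP-ctrl and 7.81 in passaged and CDKN1A 4.42 FPKM in NP-ctrl and 2.2 in passaged, both lower, while CCND1 had 34.1 FPKM in NP-ctrl and 59.7 in passaged and CCND3 2.26 FPKM in NP-ctrl and 3.48 in passaged, under 2-fold. Of 14 replication-dependent histone genes, H4C8 was higher (0.88 against 2.06 FPKM) and H2BC21 lower (2.19 against 1.03 FPKM). Their mRNAs mostly lack poly(A) tails, and 14 of 66 such genes passed the filter.

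The promoters of the replication list are shown because its members differed in 1 direction and because E2F words are frequent there. The words TTTCCCGC, TTTGGCGC and TTTCGCGC were searched on both strands, in windows from 250 bases before to 50 bases after the start. At least 1 was present in 20 of the 35 members matched to the RefSeq table (57.1%), against 2.79% of 27305 promoters and 3 of 27 matched G2 and mitosis genes (11.1%). Among all matched genes with at least 30 counts in either library, 4.54% held 1 or more. Of those at least 2-fold higher 5.06% did, and of those at least 2-fold lower 2.63%. The CCAAT word, also searched, was in 54.3% of the matched replication list, 77.8% of the matched G2 and mitosis list and 35.7% of all promoters. The members with an E2F word had a median log2 ratio of 1.11 (12 of 20 at least 2-fold higher), and the others 0.91 (3 of 15). Those with a CCAAT word had 1.13 (12 of 19), and the others 0.72 (3 of 16). E2F2 had the largest ratio of the list, and MCM6 held 4 E2F words in 2 overlapping pairs. The 250 bases before their starts are given 5′ to 3′ on the strand of the gene with the E2F words in capitals (E2F2, chr1:23531234-23531483, minus strand, and MCM6, chr2:135876444-135876693, minus strand, GRCh38.p14 from RefSeq).

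E2F2: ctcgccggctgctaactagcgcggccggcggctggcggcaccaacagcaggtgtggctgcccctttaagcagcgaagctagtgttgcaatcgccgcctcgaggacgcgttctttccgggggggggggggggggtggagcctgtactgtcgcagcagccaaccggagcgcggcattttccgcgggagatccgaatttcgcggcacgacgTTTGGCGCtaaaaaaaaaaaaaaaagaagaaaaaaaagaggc
MCM6: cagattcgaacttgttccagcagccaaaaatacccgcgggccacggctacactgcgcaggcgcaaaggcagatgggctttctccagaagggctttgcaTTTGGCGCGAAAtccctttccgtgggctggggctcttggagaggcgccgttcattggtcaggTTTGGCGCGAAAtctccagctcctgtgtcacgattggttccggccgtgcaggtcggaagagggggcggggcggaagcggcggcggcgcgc

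In E2F2 the word starts 42 bases before the transcription start, and in MCM6 words start 152, 148, 90 and 86 bases before it. A match describes the letters and shows no binding.

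**Figure D4:**
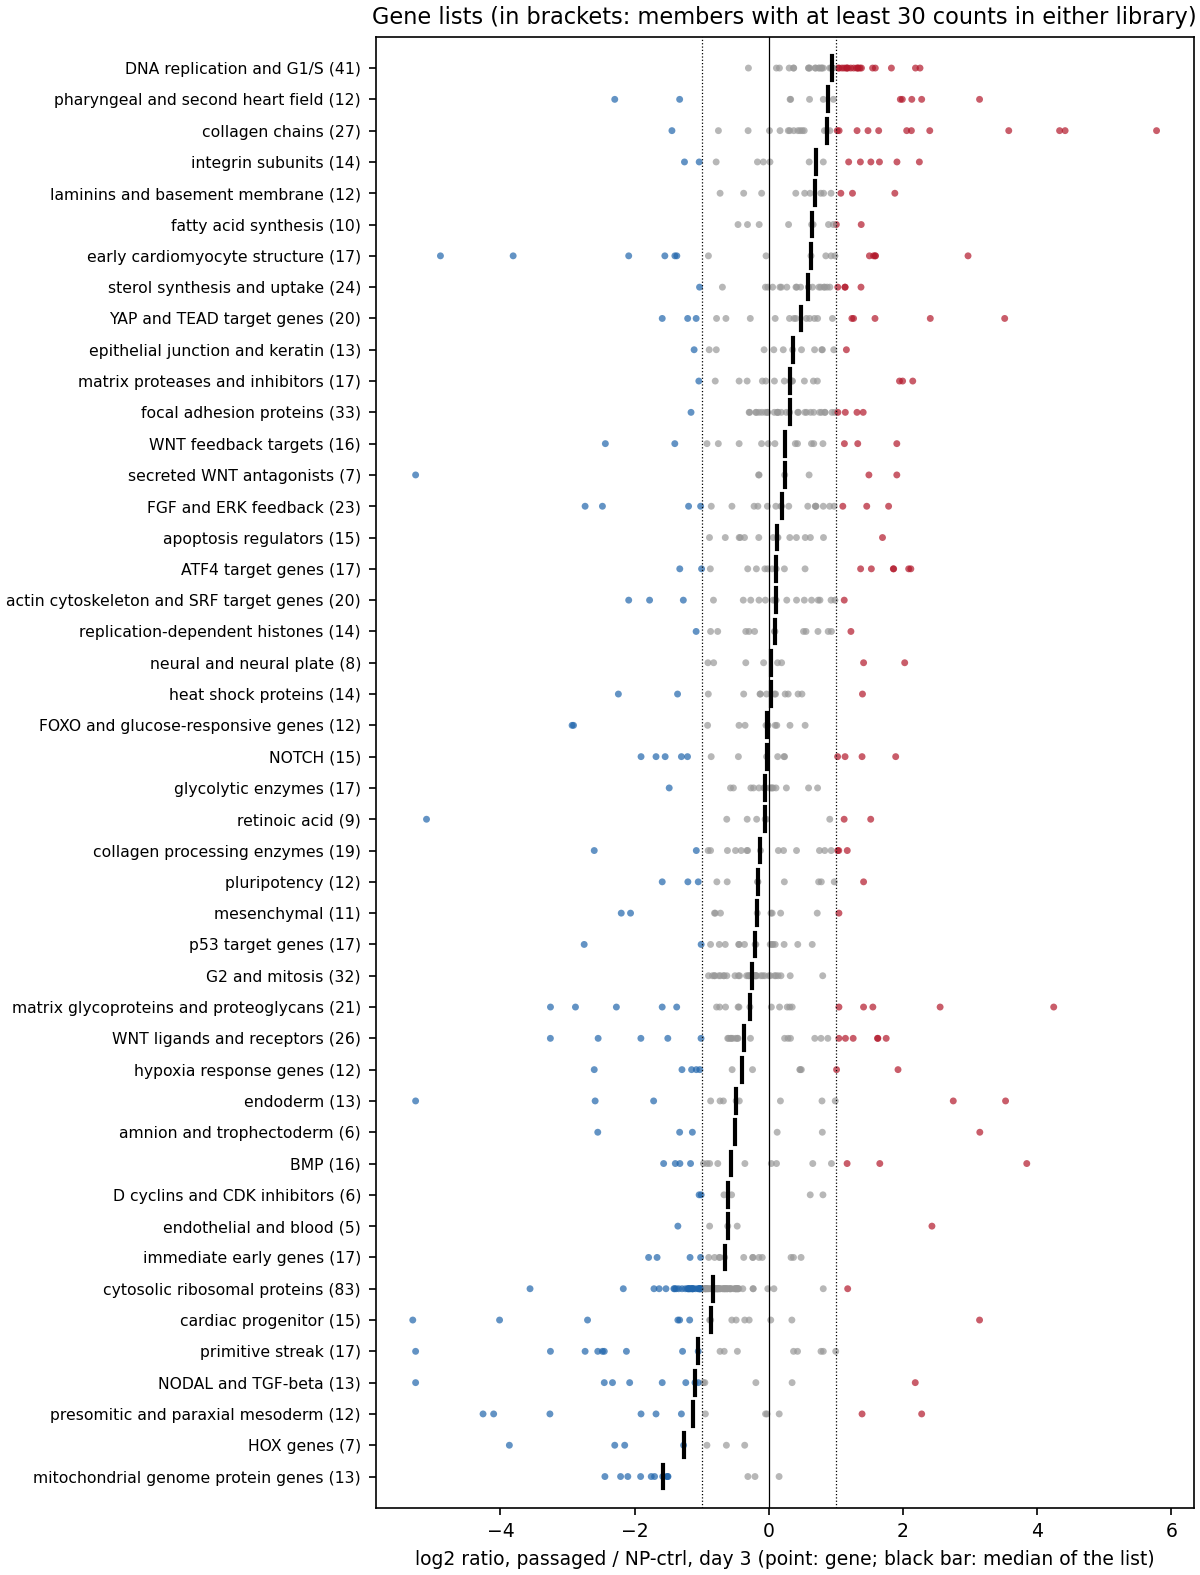
Log2 ratio of passaged over NP-ctrl on day 3 for the members of the gene lists (1 point a gene, coloured past 2-fold, black bar at the median), ordered by the median. DNA replication (median 0.95), the pharyngeal list (0.89) and the collagens (0.87) lie at the top, and the genes of the mitochondrial genome (median -1.58) at the bottom.

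Several acute stress genes were not high 1 day after replating. Of 17 immediate early genes, which respond to stimuli within minutes, none was higher and 4 were lower, with a median of -0.66. The median was -0.40 with the length trend removed and -0.37 with TPM. JUN, of the AP-1 factor, had 4.07 FPKM on day 2, 6.28 and 7.18 in NP-ctrl and NP-IWP2, and 1.82 after passaging, and ZFP36, which destabilises mRNAs, had 7.5 FPKM on day 2, 7.04 and 9.71 in NP-ctrl and NP-IWP2, and 2.22 after passaging. KLF10 and BTG2 were 2.25-fold and 2.02-fold lower. EGR1 and MYC stayed under 2-fold, at 1.45 against 2.03 FPKM and 2.47 against 3.19 FPKM. Of heat shock genes, HSPH1 was higher, with 7.66 FPKM in NP-ctrl and 20.2 in passaged, and the small chaperones HSPB8 and HSPB1 were lower, with 2.03 against 0.43 FPKM and 118 against 45.8 FPKM, out of 14 members.

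Of 17 p53 targets, 2 were lower and none higher. GDF15, a stress cytokine, had 11 FPKM on day 2, 2.36 and 2.09 in NP-ctrl and NP-IWP2, and 0.35 after passaging, and CDKN1A, the p21 inhibitor, lay at the limit with -1.01 on the log2 scale. AEN and XPC had the largest ratios, under 2-fold, at 5.13 against 8.04 FPKM and 10.9 against 14.7 FPKM. Of 15 apoptosis regulators only BCL2, which protects cells, was past 2-fold, at a low 0.05 against 0.17 FPKM. BCL2L11 had 2.57 against 4.52 FPKM, and BMF and BBC3 had 23.1 against 12.5 FPKM and 5.97 against 3.81 FPKM.

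The ATF4 list includes genes of amino acid uptake, and 6 of 17 were higher and 2 lower. The median log2 ratio was 0.11, and over the scalings it went from -0.037 to 0.39. The 9 members within 2-fold included ATF4 itself, CHAC1, DDIT3 and PSAT1, at -0.058, -0.31, -0.87 and 0.54. The transporter of large neutral amino acids SLC7A5 had 32.05 FPKM on day 2, 9.98 and 11.6 in NP-ctrl and NP-IWP2, and 43.3 after passaging, and its heavy chain SLC3A2 had 25.9 FPKM on day 2, 18.6 and 15.3 in NP-ctrl and NP-IWP2, and 48.2 after passaging. SLC7A11, the cystine transporter, STC2, TRIB3 and ATF5 were higher with log2 ratios of 1.86, 2.09, 1.86 and 1.53. All 6 were more than 2-fold above NP-IWP2 as well. DDIT4, an inhibitor of mTORC1, was lower with 120.2 FPKM on day 2, 62.2 and 46.4 in NP-ctrl and NP-IWP2, and 24.8 after passaging, and CEBPB with 15.4 FPKM in NP-ctrl and 7.67 in passaged.

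TXNIP and its relative ARRDC4, which respond to glucose and limit its uptake, were lower in passaged than in any of the other 3 libraries. TXNIP had 74.4 FPKM on day 2, 161 and 151 in NP-ctrl and NP-IWP2, and 21.5 after passaging, 7.52-fold (95% interval 7.06 to 8.02) below NP-ctrl, and ARRDC4 had 5.36 FPKM on day 2, 12.9 and 11.97 in NP-ctrl and NP-IWP2, and 1.69 after passaging. The other 10 of the 12 members were within 2-fold, among them TRIB1 and IRS2, with 3.59 against 5.22 FPKM and 6.87 against 8.56 FPKM. Of 12 hypoxia response genes, 2 were higher. ADM, adrenomedullin, had 2.34 FPKM on day 2, 4.21 and 5.16 in NP-ctrl and NP-IWP2, and 16 after passaging, and the glucose transporter SLC2A1 had 61.6 FPKM on day 2, 8.92 and 5.25 in NP-ctrl and NP-IWP2, and 17.98 after passaging. VEGFA, BNIP3 and PDK1 were 2.45-fold, 2.22-fold and 2.04-fold lower, together with LOX and P4HA1. Of 17 glycolytic enzymes only ALDOC was past 2-fold, with 22.3 FPKM in NP-ctrl and 7.97 in passaged, and HK2, PFKP and LDHA had 6.83 against 11.3 FPKM, 26.6 against 40.1 FPKM and 55.5 against 37.4 FPKM.

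For sterol synthesis and uptake, 4 of 24 members were at least 2-fold higher and 1 lower, with a median log2 ratio of 0.59. The higher members included HMGCS1, CYP51A1 and LSS, enzymes of the cholesterol pathway. HMGCS1 had 60.8 FPKM on day 2, 19.3 and 16.9 in NP-ctrl and NP-IWP2, and 39.4 after passaging, and LSS had 17.8 FPKM on day 2, 14.1 and 13.4 in NP-ctrl and NP-IWP2, and 36.6 after passaging. SC5D, a later enzyme, was lower with 33.8 FPKM in NP-ctrl and 16.5 in passaged. For fatty acid synthesis, SREBF1, the regulator of the pathway, and FASN, fatty acid synthase, were higher, with 10.4 against 27.2 FPKM and 92.2 against 185 FPKM, of 10 members with a median of 0.65. ELOVL5 and ACSS2 had the smallest ratios there, at 58.1 against 42.3 FPKM and 7.23 against 5.81 FPKM. The sterol word TCACNCCAC was found in 1 of 18 matched sterol promoters, against 1.15% of all 27305.

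Transcripts of the mitochondrial genome were lower in passaged, and they gave the 8 largest FPKM differences of protein-coding genes on the lower side. The genes of this genome took 1.53% of the counts in passaged (95% Wilson interval 1.52 to 1.53), against 4.80% in NP-ctrl, 4.66% in NP-IWP2 and 4.63% on day 2. Of 13 protein genes 10 were lower and none higher, with a median log2 ratio of -1.58, or -1.20 with the length trend removed. MT-CO2, a subunit of cytochrome oxidase (ENSG00000198712, chromosome MT, 7586 to 8269), had 5695 FPKM on day 2, 7023 and 5871 in NP-ctrl and NP-IWP2, and 1292 after passaging, and MT-CO1 had 9180.3 FPKM on day 2, 10004 and 9872 in NP-ctrl and NP-IWP2, and 3531 after passaging. MT-ATP6, MT-CO3, MT-ND2, MT-ND4, MT-CYB, MT-ND3, MT-ND6 and MT-ND1 had log2 ratios from -2.21 (MT-ATP6) to -1.51 (MT-ND1). The exceptions were MT-ND5, with a log2 ratio of -0.31, and MT-ATP8 and MT-ND4L, at 287 against 319 FPKM and 482 against 418 FPKM. MT-ATP8 and MT-ND4L overlap their neighbours MT-ATP6 and MT-ND4.

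Cytosolic ribosomal protein genes were also lower, with 29 of 83 past 2-fold and a median of -0.84. The median was nearer to 0 against the other libraries, at -0.30 against NP-IWP2, where 5 members were past 2-fold, and -0.47 against day 2. The list took 4.55% of the counts in passaged, 7.96% in NP-ctrl, 5.63% in NP-IWP2 and 5.98% on day 2. RPS27, RPL32, RPL27 and RPL29 were lower than in both static cultures, with 347 FPKM on day 2, 511 and 297 in NP-ctrl and NP-IWP2, and 114 after passaging for RPS27. RPLP0 had 599 FPKM on day 2, 827 and 591 in NP-ctrl and NP-IWP2, and 407 after passaging. RPL3L, the muscle paralog of RPL3, had 0.94 against 0.05 FPKM, and RPL36A, the 1 member higher, 2.08 against 4.7 FPKM. Many of these genes have processed pseudogenes that can share reads.

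The 8 largest FPKM differences of protein-coding genes on the higher side included the keratins of simple epithelia. KRT18 had 77.6 FPKM on day 2, 144 and 76.4 in NP-ctrl and NP-IWP2, and 322 after passaging, and its partner KRT8 had 105 FPKM on day 2, 245 and 122 in NP-ctrl and NP-IWP2, and 394 after passaging. NNAT, neuronatin, an imprinted gene, had 29.8 FPKM on day 2, 170.3 and 119.9 in NP-ctrl and NP-IWP2, and 468 after passaging, and WLS, which carries WNT proteins to the cell surface, had 37.3 FPKM on day 2, 81.9 and 40.5 in NP-ctrl and NP-IWP2, and 198 after passaging. LIN28A, an RNA-binding protein of early cells that blocks let-7, had 321 FPKM on day 2, 194 and 174 in NP-ctrl and NP-IWP2, and 382 after passaging. With ACTB, COL2A1 and FLNA these completed the list. KRT8, ACTB and LIN28A stayed under 2-fold.

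In the signalling lists, genes differed in both directions. Of 16 WNT feedback targets, AXIN2, a direct target, had 7.66 FPKM on day 2, 8.59 and 6.55 in NP-ctrl and NP-IWP2, and 18.8 after passaging, DKK1, a WNT antagonist, had 0.04 FPKM on day 2, 2.91 and 0.27 in NP-ctrl and NP-IWP2, and 10.9 after passaging, and TNFRSF19 had 2.48 FPKM in NP-ctrl and 6.22 in passaged. LGR5, the R-spondin receptor, went the other way, with 1.42 FPKM on day 2, 30.97 and 23.3 in NP-ctrl and NP-IWP2, and 5.72 after passaging, as did NKD2 with 2.92 FPKM in NP-ctrl and 1.1 in passaged. Among 26 ligands and receptors, the ligands WNT4, WNT8A and WNT11 and the agonist RSPO3 were lower, with log2 ratios of -3.26, -1.91, -1.505 and -2.54. FZD2 lay at -1.01. Higher were the receptors FZD1, FZD4, FZD10 and ROR1 and the ligands WNT2B and WNT9A, with log2 ratios from 1.05 (WNT2B) to 1.75 (FZD10), and ROR1 lay low in NP-ctrl alone. The secreted antagonist SFRP5 had 0.18 FPKM on day 2, 20.4 and 13.7 in NP-ctrl and NP-IWP2, and 57.5 after passaging, and with DKK1 made 2 of 7 antagonists higher, with CER1 lower.

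In the BMP list, 3 of 16 members were at least 2-fold higher and 4 lower, with a median log2 ratio of -0.56. With TMM factors 7 were lower. The ligand BMP4 and the response genes MSX1, MSX2 and ID2 were lower. BMP4 had 20.2 FPKM on day 2, 74.9 and 48.9 in NP-ctrl and NP-IWP2, and 29.9 after passaging, and MSX1 had 48.9 FPKM on day 2, 78.5 and 29.9 in NP-ctrl and NP-IWP2, and 29.9 after passaging. The antagonists GREM1 and NOG were higher, with 0.02 FPKM on day 2, 0.11 and 0.07 in NP-ctrl and NP-IWP2, and 1.62 after passaging for GREM1 and 0.74 FPKM in NP-ctrl and 2.33 in passaged for NOG, as was the ligand BMP7, with 8.48 FPKM in NP-ctrl and 19.1 in passaged. NP-IWP2 shared the lower levels, since its median over NP-ctrl for this list was -0.59, and passaged over NP-IWP2 had a median of 0.40.

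In the list for FGF and ERK feedback, 3 of 23 members were at least 2-fold higher and 4 lower, with a median log2 ratio of 0.19. IL17RD, a feedback inhibitor, had 50.5 FPKM on day 2, 12.3 and 13.7 in NP-ctrl and NP-IWP2, and 42.4 after passaging, and the ETS factor ETV5 had 2.89 FPKM in NP-ctrl and 7.95 in passaged. SPRY4 lay low in NP-ctrl alone, with 4.05, 8.34 and 8.7 FPKM across NP-ctrl, NP-IWP2 and passaged, and the phosphatase DUSP6 high in NP-ctrl alone, with 22.97, 11.2 and 11.4. FGF13 was 2.29-fold lower. In the NOTCH list 4 of 15 were higher and 5 lower. The ligand JAG1 had 16.8 FPKM on day 2, 14.8 and 15.97 in NP-ctrl and NP-IWP2, and 54.9 after passaging, and the receptors NOTCH2 and NOTCH3 were 2.04-fold and 2.2-fold higher. The target HEY2 had 14.2 FPKM on day 2, 19.3 and 19.8 in NP-ctrl and NP-IWP2, and 6.6 after passaging, and HEYL had 1.16 against 0.5 FPKM. Of 9 retinoic acid genes, ALDH1A2, which makes the ligand, had 0.06 FPKM on day 2, 1.06 and 0.5 in NP-ctrl and NP-IWP2, and 3.04 after passaging, the receptor and target RARB had 4.03 FPKM in NP-ctrl and 8.78 in passaged, and CYP26A1 was past 2-fold on the lower side. The 7 HOX members were all of the HOXB cluster, where neighbours overlap, and 4 were lower with none higher. At least 30 counts in both libraries were found for 3 of the 7. HOXB4, HOXB5 and HOXB6 had 3.07, 2.09 and 1.23 FPKM in NP-ctrl, against 0.96, 0.24 and 0.06 in NP-IWP2 and 0.69, 0.86 and 0 in passaged. The median of the HOX list over NP-IWP2 was -0.020.

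Markers of other cell types were checked by their lists. Of the pluripotency genes 3 of 12 were lower, NANOG with 0.57 against 0.19 FPKM, PRDM14 with 3.56 against 1.54 FPKM and TDGF1, and SOX2 was higher with 4.53, 10.2 and 12.1 FPKM across NP-ctrl, NP-IWP2 and passaged (SOX2 lies within SOX2-OT). POU5F1 had a log2 ratio of -0.77. The median log2 ratio of the list was -0.16, or 0.12 with TPM, with 5 members above 0 and 7 below. The summed FPKM of the list was 459.8 in NP-ctrl and 619.7 in passaged, to which LIN28A contributed most. Endoderm genes summed to 169 and 119.6 FPKM. HHEX was lower, with 2.95 against 0.9 FPKM, as was CER1, and PRDM1 and APOA1 higher, with 0.6 against 6.95 FPKM and 0.34 against 2.27 FPKM. AFP and TTR had 0 counts in both libraries.

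Endothelial and blood genes summed to 112 and 47.03 FPKM, mostly from KDR, and only 5 of 14 passed the filter. CDH5, PECAM1 and TAL1 had 0 counts in NP-ctrl and 3 each in passaged, and TEK was higher, with 0.28 against 1.52 FPKM. Of 8 neural genes SOX3 was higher with 2.54 against 10.3 FPKM, as was SOX2, and OTX2 had 11.3 against 6.01 FPKM. Among neural genes under the filter, PAX6 and NEUROG2 had 0 counts in both libraries. SOX1 leaned higher, at 0.07 against 0.38 FPKM (5 against 24 counts), as did LHX2, at 0.47 against 0.67 FPKM. HES5 leaned lower, at 0.19 against 0.11 FPKM. Of 6 genes of amnion and trophectoderm, TFAP2A was higher (0.16 against 1.46 FPKM), and GATA3 (20.1 against 9.13 FPKM), CDX2 and ISL1 lower. TFAP2C had 2.87 against 4.99 FPKM. Of the epithelial list KRT18 was past 2-fold, CLDN3 lower with 6.33 against 2.93 FPKM, E-cadherin (CDH1) at 15.1 against 29.5 FPKM and ESRP1 at 7.27 against 3.93 FPKM. Of the mesenchymal list SNAI1 was lower, with 99.7 FPKM on day 2, 19.9 and 22.9 in NP-ctrl and NP-IWP2, and 4.76 after passaging, PRRX1 stood apart in NP-ctrl alone (0.45 FPKM, against 0.07 in NP-IWP2 and 0.1 after passaging), FN1 was higher, and TWIST1 had 5.85 against 9.66 FPKM. Whether shifts in these cell types contributed to the other differences was not tested.

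Genes that encode no protein made up 348 of the higher and 332 of the lower genes. The largest ratios among them were those of the lncRNA genes ENSG00000228222, ADAMTS9-AS1, ENSG00000260279 and LINC02513 and the pseudogene PRPS1P2, with log2 ratios from 3.83 to 4.50. ADAMTS9-AS1, beside ADAMTS9, had 4 and 4 counts in NP-ctrl and NP-IWP2, and 54 after passaging. The smallest were those of ENSG00000254293, MIR9-1HG, ENSG00000223930, ENSG00000238178 and TBX2-AS1. MIR9-1HG, the host gene of a microRNA 9 hairpin, had 3.35 FPKM on day 2, 2.07 and 3.38 in NP-ctrl and NP-IWP2, and 0.08 after passaging. ENSG00000223930 had 82 and 80 counts in NP-ctrl and NP-IWP2, and 0 after passaging, so NP-ctrl was at least 23.01-fold higher.

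The 313 genes for which NP-ctrl alone stood apart included 131 non-coding genes low in NP-ctrl, and 163 of the 269 low ones had under 30 counts there. The largest ratios were those of MIR3186, SLC34A3, CDHR5, ENSG00000269427, SEMA6A-AS1 and ENSG00000280828. SLC34A3, a phosphate transporter, had 6 and 39 counts in NP-ctrl and NP-IWP2, and 55 after passaging. MIR3186, a microRNA hairpin gene, had 1 and 36 counts in NP-ctrl and NP-IWP2, and 34 after passaging. On the other side, HOXB6 had 52 and 2 counts in NP-ctrl and NP-IWP2, and 0 after passaging, and NPNT had 34 and 5 counts in NP-ctrl and NP-IWP2, and 3 after passaging. For such genes passaging and the NP-ctrl library cannot be told apart.

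The day 2 library gives the level before the arms were divided. Of 1130 protein-coding genes higher in passaged, 557 were at least 2-fold above day 2 in passaged while NP-ctrl was not 2-fold below it, 229 were at least 2-fold below day 2 in NP-ctrl while passaged was not 2-fold above it, 34 met both, and 310 met neither. COL5A3, TNC and UHRF1 are of the first kind, and SLC7A5 and IL17RD, which lay far below day 2 in the static cultures alone, of the other. Of 813 lower genes, 371 were 2-fold below day 2 in passaged only, 223 were 2-fold above it in NP-ctrl only, 16 met both and 203 neither. TGFB1 and ITGA5 are of the first kind, and HAND1 and HAND2 of the other.

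On later days the day 3 differences were followed in the same way. Of the 1298 higher genes that could be followed on day 5, 18.0% were at least 2-fold higher in passaged again, against 6.46% of all genes of that day, and 11.6% were lower, against 9.36%. Of the 858 lower genes, 29.8% were lower again, and 6.06% were higher. On day 7 the higher genes were higher again in 13.4% (7.98% of all genes) and lower in 23.3% (15.1%), and the lower genes lower in 28.8% and higher in 11.7%. On day 10 they were higher in 11.9% (9.48%) and lower in 34.0% (20.3%), and the lower genes lower in 31.9% and higher in 14.4%. The median log2 ratio was 0.11 for the higher genes on day 5 and -0.50 on day 10, and for the lower genes -0.42 and -0.26.

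**Figure D5:**
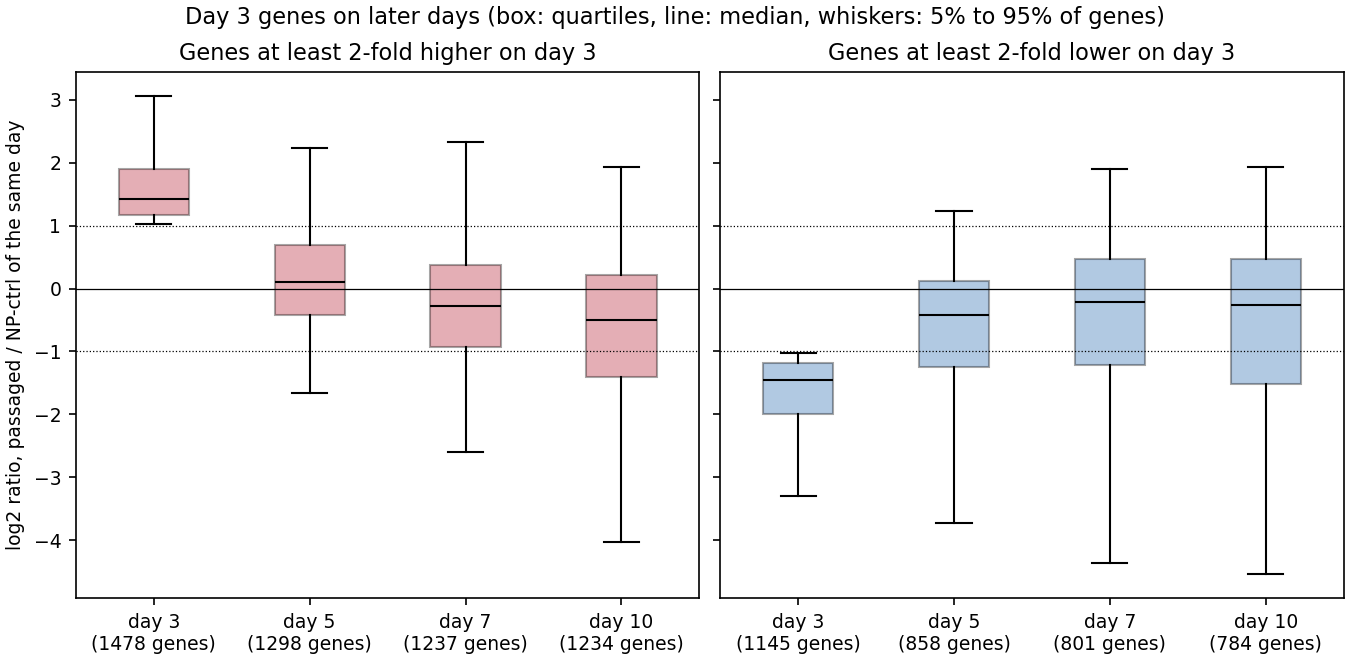
Log2 ratio of passaged over NP-ctrl of the same day for the genes at least 2-fold higher (left) or lower (right) on day 3, as boxes of quartiles with whiskers from 5% to 95% of the genes. The selected day 3 values lie past 1 by choice, and on day 5 the medians are 0.11 and -0.42.

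Lists differed in what followed. The pharyngeal and second heart field list had medians of 0.89 on day 3, 2.78 on day 5 and 2.18 on day 10, and early cardiomyocyte structure 0.63, 1.23 and 2.89. DNA replication had 0.95, 0.55 and -0.86. The mitochondrial genome had -1.58 on day 3, 0.28 on day 5 and 0.93 on day 7, and all 13 of its genes were at least 2-fold higher on day 10. On days 3, 5 and 10 the ribosomal proteins had -0.84, -0.028 and -0.20. Collagen chains had 0.87 on day 3 and -0.62 on day 5, when 11 chains were lower and 3 higher. Each later day is again 1 library per arm.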

How the data were processed

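Per the labels, RNA of H1 cells was converted to cDNA with a low-input kit. The submitters' processing notes name cutadapt (1.9.1), HISAT2 (2.0.1), HTSeq (0.6.1), DESeq2 and the build hg38. The counts deposited by the authors are whole numbers per Ensembl gene, and the deposited FPKM are these counts scaled by exonic length and library total (recomputed within 0.005). Whether counting used strand is not given in the sources used here. Symbols and types came from GENCODE 44 and a name table. Of all genes, 93.55% had identical coordinates in GENCODE 44.

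Ratios of FPKM were computed with the library total, and exact 95% intervals came from the Clopper-Pearson interval of 1 library's share of both counts. For calls and medians, counts up to 3 were set to 3. With 0 counts the fold against 3 counts is given as "at least". In passaged, 3 counts equal 0.219 FPKM for a gene with 1 kilobase of exon, and less for a longer gene. The procedure was tested on simulated data.

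Named genes were the 15 largest and smallest ratios of protein-coding genes, the 2 largest and smallest and any past 2-fold of 47 lists, the 8 largest where NP-ctrl alone stood apart, 5 and 5 non-coding genes, and the 8 largest FPKM differences of protein-coding genes in each direction. HAND2-AS1 and list genes under the filter were added after their values were seen. Members and lists were chosen with earlier results of these data known. Y-linked genes were left out of the ribosomal list. Some named genes and 1 list are not reported here, but stay in the counts. Alternatives were TMM (edgeR 4.0.16), median-of-ratios, TPM and mitochondria-free scaling, other filters, pseudocounts and folds, and, chosen after seeing the data, removal of the trend with gene length.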

Additional observations from a re-analysis of the deposited data

Results flagged for a closer look

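Of the named genes, 36 were at least 2-fold apart one way on day 3 and at least 2-fold the other way on day 5, 25 from higher to lower and 11 from lower to higher. These differences between days were not tested, since each day had 1 library per arm. All values are log2 ratios of passaged over NP-ctrl, on day 3 and then on day 5. Among matrix genes, the ratio went from 4.42 to -3.18 for COL3A1, 2.40 to -3.41 for COL6A3, 2.55 to -2.69 for TNC, 1.55 to -2.40 for TGFBI, 1.48 to -1.57 for COL18A1, 1.64 to -1.30 for COL14A1 and 1.32 to -1.10 for COL1A1. Among integrins and their partners it went from 1.19 to -2.54 for ITGA8, 1.03 to -1.80 for TLN2 and 1.65 to -1.04 for ITGA1, and the other way from -1.04 to 1.04 for ITGB4. Among secreted and signalling genes it went from 2.75 to -7.26 for APOA1, 2.00 to -4.41 for PLAT, 1.93 to -3.71 for ADM, 1.49 to -2.03 for SFRP5, 3.52 to -2.02 for IGFBP3, 2.18 to -1.93 for FST, 1.39 to -1.26 for LFNG, 1.27 to -1.17 for WLS, 1.03 to -1.10 for NOTCH2 and 1.05 to -1.01 for WNT2B. It went from 5.28 to -1.70 for GDPD2, 4.91 to -1.71 for SH3TC1, 3.42 to -2.28 for CDHR5, 3.44 to -1.88 for SLC34A3 and 2.95 to -2.06 for ENSG00000280828. Genes of heart and smooth muscle went from lower to higher, from -3.81 to 5.92 for MYH6, -4.89 to 3.69 for NPPB, -1.21 to 3.98 for ANKRD1, -1.33 to 1.49 for ISL1, -1.37 to 1.33 for MYL4 and -1.78 to 1.13 for CNN1. The others were HEYL, H2BC21, CDKN1A and DUSP6, from -1.21 to 1.94 for HEYL, -1.08 to 1.59 for H2BC21, -1.01 to 1.25 for CDKN1A and -1.02 to 1.23 for DUSP6. For CDHR5, SLC34A3, ENSG00000280828, MYL4 and DUSP6, NP-ctrl alone stood apart on day 3. The median of the collagen chain list, which was under 2-fold on both days, went from 0.87 to -0.62. Groups of 1 library cannot be searched for outliers.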

How the results depend on the processing

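The main counts were 2623 genes past 2-fold, 1478 higher, 1145 lower, 313 with NP-ctrl alone apart and 1522 with passaged apart. In the same order they were 5531, 3391, 2140, 1226 and 2949 without a filter beyond more than 3 counts, 1531, 851, 680, 100 and 862 with at least 100 counts in either library, 1616, 957, 659, 122 and 852 with at least 30 in both, 1033, 530, 503, 46 and 589 on log2(FPKM + 1), 5621, 3207, 2414, 910 and 3411 at 1.5-fold, and 596, 309, 287, 37 and 375 at 4-fold. TPM gave 2498 higher and 724 lower. NP-ctrl alone stood apart for 208 genes with 60 counts summed and 167 protein-coding genes.

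Of the genes higher on day 3, the percentages higher again on days 5, 7 and 10 were 12.7, 9.22 and 7.18 with TPM, and 13.9, 8.68 and 8.11 on log2(FPKM + 1). They were 21.2, 15.5 and 14.1 at 1.5-fold, 15.02 and 11.03 (days 5 and 7) with 30 counts in both, 15.5 and 9.55 (days 5 and 10) at 4-fold, 20.3 (day 5) without the filter, and 15.7 (day 7) for protein-coding genes. On days 7 and 10 they were 17.4 and 15.2 with TMM, and 17.8 and 15.1 with median-of-ratios factors. The percentages of lower genes lower again on days 5, 7 and 10 were 37.4, 36.3 and 41.6 with TPM, 19.8, 18.2 and 18.8 with 30 counts in both, 20.2, 17.6 and 21.1 on log2(FPKM + 1), and 25.4, 23.5 and 26.3 with 100 counts. They were 34.6 (day 5) at 4-fold and 27.9 (day 10) with 60 counts summed, and on days 7 and 10 they were 23.0 and 27.3 with TMM, and 22.5 and 27.0 with median-of-ratios factors.

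Of 47 list medians 17 changed sign under some scaling, all between -0.28 and 0.13. The ribosomal median was -0.96 with TMM, -0.98 with median-of-ratios, -0.55 with TPM and -0.74 with the length trend removed. With TPM the medians were 1.23 for DNA replication, 0.88 for sterol synthesis, 0.041 for G2 and mitosis, 0.081 for p53 targets, 0.25 for FOXO and glucose-responsive genes and 0.23 for glycolytic enzymes. The amnion and trophectoderm median reversed to 0.46 without the filter, when more of its genes entered. No named gene reversed, and 75 of the 295 named genes past 2-fold fell under it with some scaling. The other causes were not tested. No paired analysis was possible because each arm had 1 library per day, so no replicate could be left out. Depth limits genes near 30 counts most.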
